A study of Bombyx mori with 3 samples.

Results

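RNA of silkworm pupae was set against RNA of larvae for noncoding RNAs (ncRNAs) of 50 to 500 nucleotides on a 2-colour array, and 111 of the array's 132 ncRNAs were measured. Most were close to equal in both pools. Bm-152 was more than 2-fold higher in pupa, and Bm-51, Bm-155, Bm-128 and Bm-16 were more than 2-fold lower. Bm-86 was at nearly the same level in pupa as in larva, while it was far lower in egg and in adult than in larva.

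The values come from 1 scan, in which pupal RNA was labelled with the green dye Cy3 and larval RNA with the red dye Cy5. An ncRNA counted as measured where at least 1 of its 3 repeated spots had a quality flag of 0 or above. Each value is the log2 ratio of pupa over larva, averaged over those spots. Of the 396 ncRNA spots, 303 (76.5%) were kept, and 90 ncRNAs had 3 kept spots, 12 had 2 and 9 had 1. The array's ncRNAs carry a number only (Bm-152 and so on), and none (0 of 132) matched a gene of the RefSeq table of names, so no role is given for any of them.

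All animals were of the Bombyx mori strain Dazao P50, kept after hatching at 25 °C and 70% humidity under 14 h light and 10 h dark. The pupal RNA was 1 pool over days 1 to 9 of pupation. It is set beside 1 egg pool of diapaused and non-diapaused eggs and 1 adult pool of male and female moths. The larval pool, hybridised against each of the other stages, covered instars 1 to 5. With 1 pool for each stage no test between stages could be made, and every SD below is over repeated spots of the same probe on 1 array. A pool over many days gives neither the course within the stage nor the spread between animals. In whole animals, fewer cells that make an RNA and less RNA per cell cannot be told apart.

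Noncoding RNAs of this size include small nuclear RNAs, which form the core of the spliceosome, and small nucleolar RNAs, which guide the chemical modification of ribosomal and other RNAs. In the silkworm pupa, many larval tissues are broken down while adult organs grow from imaginal cells, under the control of ecdysteroid hormones. The comparison of pupa with larva asked which of these ncRNAs differ in level across that change of body plan.

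The pupal table holds a second scan, labelled with pupa in Cy5. It was not used for the values below, because it repeats a scan of the adult table. The flags were the same in both copies at all 561 spots. The log2 ratio of red over green differed between the copies with an SD of 0.0133 over 363 spots. Values therefore rest on 1 dye orientation, and a dye effect of a probe is not removed from them. Across the 108 ncRNAs kept in both pupal scans, Pearson's r was -0.38, Spearman's rho was -0.43 and 71 ncRNAs had opposite signs. In the adult table the repeated scan is labelled with adult in Cy3, so its red over green ratio is larva over adult there. Which labelling holds is not settled by the labels, so these values do not measure agreement between dye orientations of pupa. They are a description across ncRNAs, not across samples.

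In the kept spots, the median signal was 1304 intensity units in pupa and 1317 in larva. The 108 negative spots (blank, buffer or other negative controls) gave a limit for background, their 95th percentile, of 369 in the pupal channel and 377 in the larval channel. Of the 111 measured ncRNAs, 99 had mean signals above these levels in both channels, 10 were below in pupa, 8 were below in larva and 6 of these were below in both.

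The log2 ratios of the 111 ncRNAs ran between -1.63 and 1.17, with a median of -0.04 and quartiles of -0.26 and 0.21. The bulk of the ncRNAs thus lay within a narrow band, 61 of them within 0.25 of equality and 92 within 0.5. There were 50 ncRNAs on the pupal side of equality and 61 on the larval side.

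**Figure D1:**
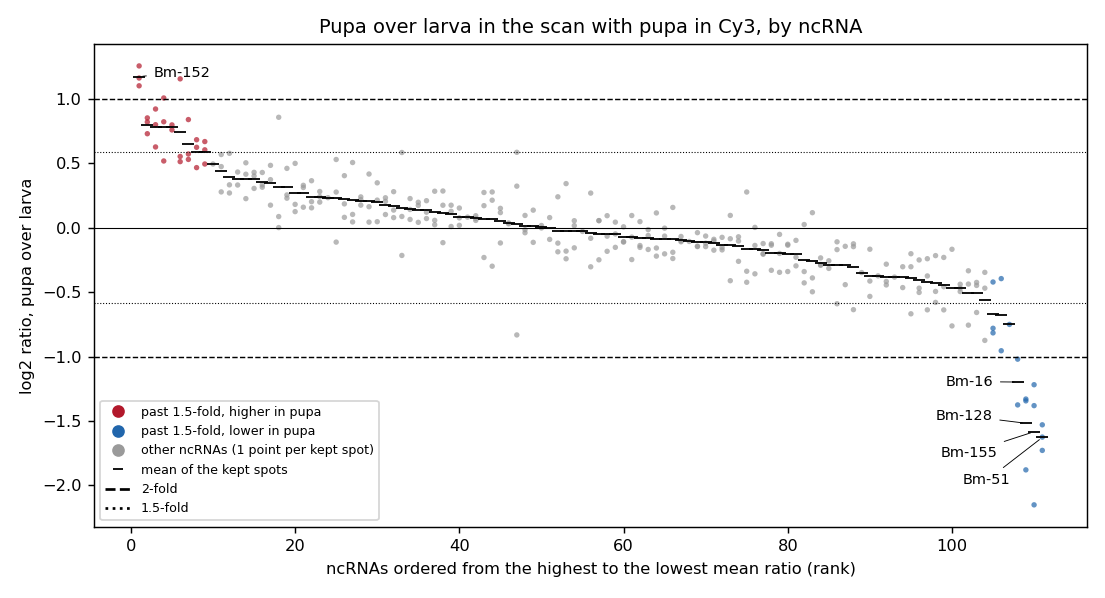
Log2 ratio of pupa over larva (vertical axis) for 111 ncRNAs ordered by their mean ratio (horizontal axis, rank). Points are kept spots, short bars are means, and lines mark 2-fold and 1.5-fold. Bm-152 at 1.17 is the only mean above the upper 2-fold line, and 4 means lie below the lower one.

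An ncRNA was counted as different where its mean ratio was at least 2-fold and all kept spots had 1 sign. In pupa, 1 ncRNA was higher by this rule (0.901% of 111) and 4 were lower (3.60%), or 4.50% in either direction.

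Bm-152 had signals of 3009, 23928 and 13607 in pupa, against 1260, 10691 and 6341 in larva. The pupal signal was the higher one in each spot. Although the brightness of the spots differed widely, their log2 ratios were 1.26, 1.16 and 1.10. The mean was 1.17 ± 0.08 (SD, 3 spots), which is 2.26-fold higher in pupa.

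Bm-51 had signals of 381, 379 and 274 in pupa, against 1264, 1171 and 792 in larva. All 3 larval signals were above all 3 pupal ones. Its log2 ratio was -1.63 ± 0.10 (SD, 3 spots). Because its mean pupal signal was not above the background limit, the difference is given as at least 2.86-fold lower in pupa. That bound sets the pupal signal at the limit, and the log2 ratio is then -1.52.

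Bm-155 had signals of 539, 294 and 457 in pupa, against 1256, 1308 and 1192 in larva. The larval signals were close to each other and the pupal ones were not, so its ratio of -1.58 had the large SD of 0.50 (3 spots). Of its pupal spots, 1 was below the background limit.

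Bm-128 had signals of 456, 320 and 411 in pupa, against 1157, 1178 and 1032 in larva. The stages did not overlap, and the ratio was -1.52 ± 0.31 (SD, 3 spots), or 2.86-fold lower in pupa. Here too the pupal signal lay close to the background limit, so the size of the ratio depends on what little signal remained in pupa.

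Bm-16 was the brightest of the lower ncRNAs in pupa. Its 2 kept spots had signals of 1517 and 1040 in pupa, against 3935 and 2109 in larva. The ratio was -1.20 ± 0.25 (SD, 2 spots), or 2.29-fold lower in pupa, and both channels were well above the background limits. Its last spot was left out by its flag and had 76.6 in pupa and 98.3 in larva. With that spot included the mean was -0.92, short of 2-fold. Among lower ncRNAs Bm-16 lay nearest inside the 2-fold limit, with Bm-37 at -0.75 nearest outside. Among higher ncRNAs these places were held by Bm-152 and, outside, by Bm-73 at 0.80.

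Lowering the fold to 1.5, with all kept spots again of 1 sign, took in 9 higher ncRNAs (8.11% of 111) and 7 lower ones (6.31%), together 14.4%. The 9 higher ncRNAs had mean pupal signals of 539 to 21373, and none (0) of these was under 500. Of the 7 lower ncRNAs, 6 had mean pupal signals under 500, with Bm-16 the exception. Among the 95 ncRNAs within the limit, 14 had a mean pupal signal under 500. The pupal signal is part of the ratio that set these groups, so this contrast is partly built in. By larval signal, the median was 1076 in the 7 lower ncRNAs, 1124 in the 95 and 2209 in the 9 higher ones.

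**Figure D2:**
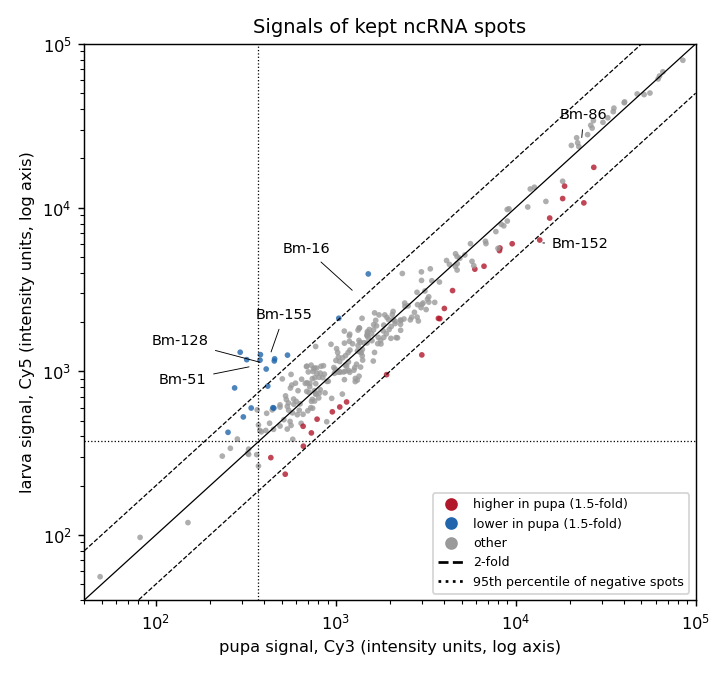
Larval Cy5 signal (vertical, log axis, intensity units) against pupal Cy3 signal (horizontal, log axis) for the 303 kept ncRNA spots. Dashed lines are 2-fold, dotted lines the 95th percentiles of the negative spots (369 in pupa, 377 in larva). The spots of the lower ncRNAs, blue, cluster near the pupal percentile apart from those of Bm-16.

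Bm-73 had signals of 4015, 3720 and 3788 in pupa, against 2421, 2106 and 2098 in larva. All 3 spots gave a similar ratio, and the mean of 0.80 ± 0.06 (SD, 3 spots) is 1.74-fold higher in pupa.

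Bm-160 had signals of 788, 661 and 732 in pupa, against 510, 349 and 420 in larva, and a log2 ratio of 0.78 ± 0.15 (SD, 3 spots). Bm-140 had 4459, 1917 and 1149 in pupa, against 3114, 954 and 650 in larva, with a ratio of 0.78 ± 0.25 (SD, 3 spots). The pupal signal was higher in every spot of both, but the 3 spots of Bm-140 differed more in brightness and in ratio. Bm-57 had 957 and 1053 in pupa, against 566 and 606 in larva, with a ratio of 0.78 ± 0.03 (SD, 2 spots). Its last spot, left out by its flag, had a ratio of 0.71.

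Bm-135 had signals of 524, 436 and 659 in pupa, against 235, 297 and 462 in larva. Its ratio was 0.74 ± 0.36 (SD, 3 spots). The mean larval signal was under the background limit, so the ncRNA is given as at least 1.41-fold higher in pupa, a bound that is itself under 1.5-fold.

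The other 3 higher ncRNAs were bright. Bm-23 had 15457, 8126 and 8180 in pupa, against 8638, 5465 and 5665 in larva (0.65 ± 0.17, SD, 3 spots). Bm-103 had 18701, 18245 and 27173 in pupa, against 13534, 11364 and 17628 in larva (0.59 ± 0.11, SD, 3 spots). In Bm-103 the pupal range lay wholly above the larval one, whereas in Bm-23 the ranges overlapped and the pupal signal was higher within each spot. Bm-102 had 6668, 5931 and 9564 in pupa, against 4386, 4209 and 6016 in larva (0.59 ± 0.09, SD, 3 spots), and was nearest inside the 1.5-fold limit. Nearest outside was Bm-83, at 0.49 from 1 spot. Its larval signal was under the background limit, and with that signal set at the limit Bm-83 was at -0.02.

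The 3 remaining lower ncRNAs were all dim in pupa. Bm-37 rested on a single kept spot, with 252 in pupa and 424 in larva (log2 ratio -0.75). Its other spots were left out by their flags and had ratios of 1.60 and 0.51, opposite in sign to the kept one. With its pupal signal set at the background limit, Bm-37 was at least 1.15-fold lower in pupa, again under 1.5-fold.

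Bm-159 had signals of 419 and 453 in pupa, against 812 and 596 in larva (-0.68 ± 0.40, SD, 2 spots). Bm-25 had 306, 339 and 447 in pupa, against 526, 597 and 599 in larva (-0.67 ± 0.22, SD, 3 spots). Neither ncRNA had a pupal signal as high as its lowest larval one. The pupal mean of Bm-25 was below the background limit, which gives at least 1.55-fold lower in pupa. Bm-25 was the lower ncRNA nearest inside 1.5-fold.

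**Figure D3:**
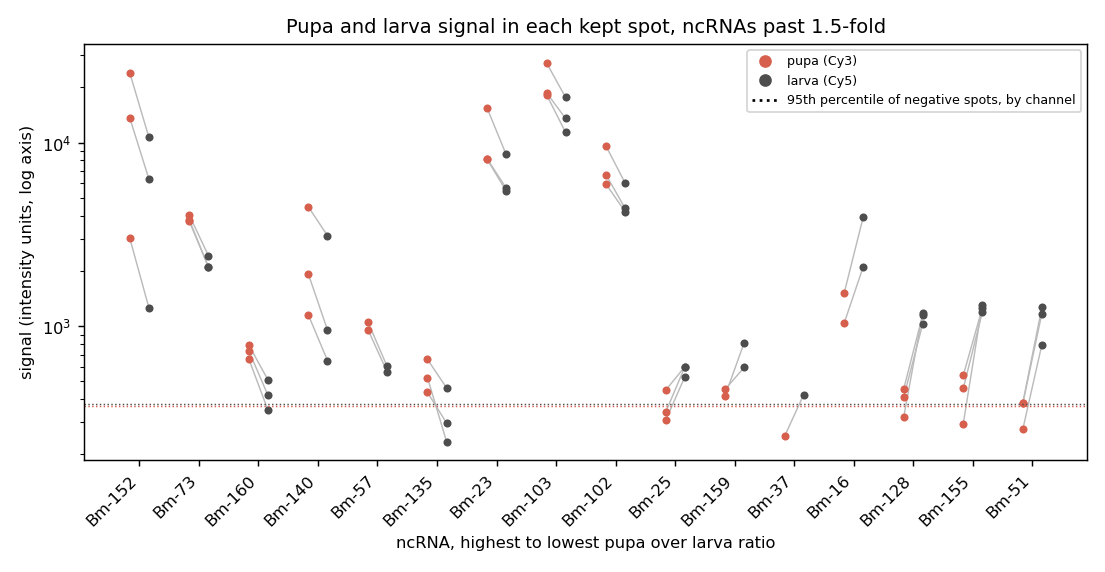
Pupal Cy3 and larval Cy5 signal (log axis, intensity units) in each kept spot of the 16 ncRNAs past 1.5-fold, ordered along the horizontal axis by their ratio; lines join the channels of a spot. The larval spots of Bm-51, Bm-155 and Bm-128 lie between 792 and 1308, while their pupal spots lie between 274 and 539, around the dotted 95th percentiles of the negative spots.

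Just short of 1.5-fold, the next lower ncRNAs were Bm-129 at -0.56 ± 0.28 and Bm-52 at -0.51 ± 0.13 (SD, 3 spots each). Bm-117 was at -0.51 ± 0.22 and Bm-162 at -0.47 ± 0.03 (SD, 3 spots each). Bm-29 was at -0.47 ± 0.42 (SD, 2 spots). In the spots of Bm-162 the signals were 1355, 1196 and 1644 in pupa, against 1837, 1686 and 2275 in larva. This ratio was small but repeated closely, whereas those of Bm-129 and Bm-29 varied more between spots.

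At the level of equality, Bm-33 had signals of 63012, 65786 and 84966 in pupa, against 63699, 67595 and 79540 in larva, with a ratio of 0.01 ± 0.07 (SD, 3 spots). It was the brightest ncRNA of the scan. In 2 of its spots a signal exceeded 65535, the highest value that 16 bits can hold, so its ratio may be compressed by saturation, which was not tested. Bm-97 had a ratio of -0.03 ± 0.11 (SD, 3 spots), with signals of 3130, 2083 and 1835 in pupa, against 3096, 2322 and 1767 in larva. Bm-9 was at -0.02 ± 0.23 (SD, 3 spots).

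A mean near 0 was not always a steady one. Bm-36 averaged 0.03, but its spots were at -0.83, 0.59 and 0.32, and its SD of 0.75 was the largest of all. Bm-20 averaged -0.03 ± 0.32 (SD, 3 spots) with a mean signal of 93.9 in pupa and 90.4 in larva. Both were below the background limits, so its level was not above the limit in either stage.

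The 8 ncRNAs with a mean pupal signal above 20000 were chosen after their values were seen. They were Bm-33, Bm-48, Bm-68, Bm-86, Bm-101, Bm-103, Bm-146 and Bm-154, and had ratios of -0.27 to 0.59 with a median of -0.12. Bm-103 was the only one of these past 1.5-fold.

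The spread between spots became smaller with brightness. The median SD was 0.14 over the 102 ncRNAs with at least 2 kept spots, and the SDs ran between 0.0052 and 0.75. When the 90 ncRNAs with 3 spots were split into 3 groups of 30 by brightness, the median SD was 0.22 in the dimmest group, 0.15 in the middle group and 0.07 in the brightest group. The dimmest group held 6 ncRNAs past 1.5-fold, the middle group 1 and the brightest group 5. The ncRNAs past 1.5-fold therefore stood at both ends of the range of signals.

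Among the ncRNAs with 3 kept spots, Bm-121 and Bm-79 repeated most closely. Bm-121 had 1150, 1047 and 1027 in pupa, against 1078, 996 and 988 in larva, with an SD of 0.02 over 3 spots. Bm-79 also had an SD of 0.02, at signals of 9177 to 12710 in pupa and 9840 to 13324 in larva. After Bm-36 and Bm-155, the largest SD was that of Bm-91 (0.47), whose spots were at 0.09, 0.00 and 0.86. All 3 spots had the same sign in 65 of the 90 ncRNAs, 34 of them higher and 31 lower in pupa, and 25 had spots of both signs.

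**Figure D4:**
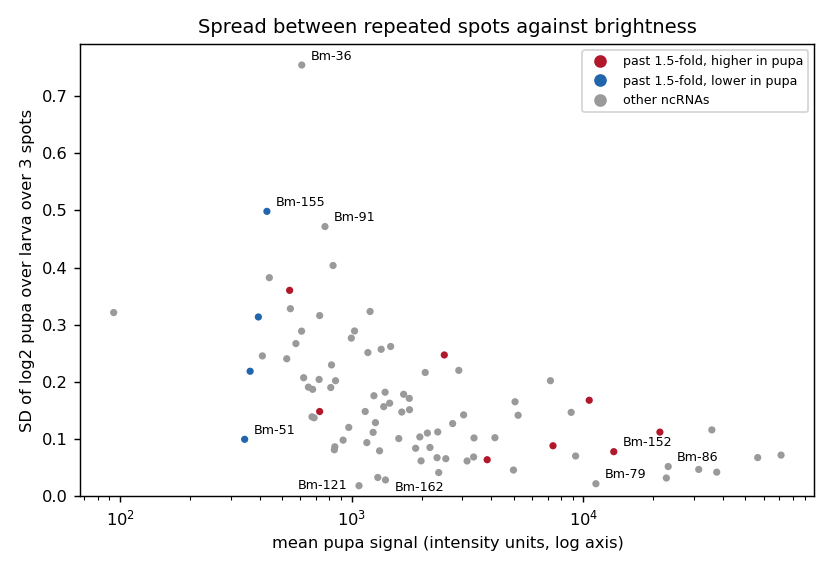
SD of the log2 ratio over 3 spots (vertical axis) against mean pupal signal (horizontal, log axis, intensity units) for the 90 ncRNAs with 3 kept spots. Bm-36 (0.75), Bm-155 (0.50) and Bm-91 (0.47) have the largest SDs and lie in the dim range, while Bm-152 and Bm-86 lie low at the bright end.

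The size of a dye effect was read from the stages scanned in both orientations, as the difference between the ratio with the stage in Cy3 and that with it in Cy5, divided in 2 equal parts. In egg it had an SD of 0.23 over 104 ncRNAs and ran between -0.87 and 0.92, with 4 ncRNAs at 0.5 or more in size. In adult it had an SD of 0.15 over 112 ncRNAs and ran between -0.37 and 0.51, with 1 ncRNA at 0.5 or more. The adult values include the scan that also stands in the pupal table.

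With the egg or the adult dye term taken off, Bm-152 was at 1.28 or 1.13, Bm-51 at -1.72 or -1.74 and Bm-128 at -1.54 or -1.34. Bm-16 was at -1.46 or -1.24. Bm-155 moved more, to -2.50 with the egg term, which at 0.92 was the largest of all, and to -1.41 with the adult term. Some of these terms rest on little. The egg terms of Bm-16, Bm-128 and Bm-155 take 1 spot with egg in Cy5. The adult terms of Bm-51, Bm-128 and Bm-155 use a scan in which both of their signals were below its background limits.

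Pupa was then set beside egg and adult in the scans of the same orientation, each with larva in Cy5. In the difference between such ratios, larval level and dye term cancel only where both are the same in each scan. The larval signals were not the same. Their log2 values in the pupal scan differed from those in the egg scan with an SD of 1.80, and from the adult scan with 0.93. For Bm-86 the larval channel had 2427 in the egg scan and 27585 in the adult scan. How far this enters the differences between ratios was not tested. The egg and adult dye terms of Bm-155 above were not alike. The scans share the larval pool, and the adult scan is the one also found in the pupal table. The ratios of pupa had an SD of 0.45 over ncRNAs, against 0.49 in egg and 0.61 in adult. In the 99 ncRNAs measured in all 3 scans, both differences were past 2-fold with 1 sign in 3 ncRNAs. These were Bm-86, higher in pupa (1.01%), and Bm-128 and Bm-163, lower in pupa (2.02%). With egg and adult averaged over both dyes, Bm-163 no longer stood apart and Bm-155 did. With adult taken from its Cy5 scan, Bm-128, Bm-155 and Bm-163 were lower.

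Bm-86 had signals of 25105, 22433 and 22099 in pupa, against 27931, 23628 and 24902 in larva. The ratio of -0.13 ± 0.05 (SD, 3 spots) left pupa slightly below larva in each spot, far from any limit used here. In egg Bm-86 had a mean signal of 610, against 2427 in the larval channel of that scan, and a ratio of -2.01 ± 0.27 (SD, 3 spots). In adult it had 1426, against 27585 in larva, and a ratio of -4.28 ± 0.05 (SD, 3 spots).

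Bm-86 was thus higher in pupa than in egg by 1.88 on the log2 scale. It was higher than in adult by 4.15, or by 3.57 with adult taken from its Cy5 scan. In the scan with adult in Cy3 the adult signal was under the background limit (1568). With the signal set there the difference was 3.97, or 15.7-fold, in that orientation. It is not a lower bound over both orientations, since the Cy5 scan gave 3.57. Bm-86 also had an egg dye term of 0.55, and its pupal ratio less that term was -0.68. Less the adult term it was 0.15.

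Bm-163 had signals of 4896, 3419 and 4129 in pupa, against 4907, 3577 and 4753 in larva, with a ratio of -0.09 ± 0.10 (SD, 3 spots). Egg was at 1.05 and adult at 1.34 in the same orientation, so pupa was lower than egg by 1.14 and lower than adult by 1.43 on the log2 scale. Every signal behind these differences was above the background limit of its scan. With egg in Cy5 the egg ratio was 0.12, so the difference to egg is large in the one orientation that pupa shares.

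Bm-128, at -1.52 in pupa, was at -0.35 in egg and at -0.46 in adult. The differences of pupa were -1.16 and -1.05 on the log2 scale. Both adult-scan signals of Bm-128 (828 in adult, 1139 in larva) were below the background limits there, and so was its egg signal. Its place among these ncRNAs therefore rests in part on signals near or below limits that differed widely between scans. For the stage and the larval channel the limits were 1568 and 1551 in the adult scan and 171 and 168 in the egg scan. In the pupal scan they were 369 and 377, so that a larval signal of 1157 was above the limit there.

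At 1.5-fold, 2 ncRNAs were higher in pupa than in both egg and adult (2.02%) and 9 were lower (9.09%). For 6 of the 9 (Bm-25, Bm-37, Bm-51, Bm-128, Bm-155 and Bm-159) both signals of the adult scan were below its background limits. For Bm-16, Bm-163 and Bm-183 no signal was. The added higher ncRNA was Bm-112, at 0.22 ± 0.17 in pupa (SD, 3 spots), against -0.61 in egg and -0.43 in adult, with all signals above the background limits. Bm-183 was at -0.38 ± 0.09 in pupa (SD, 3 spots), against 0.91 in egg and 0.32 in adult. Bm-16 was at -1.20 in pupa, against -0.50 in egg and 0.02 in adult.

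**Figure D5:**
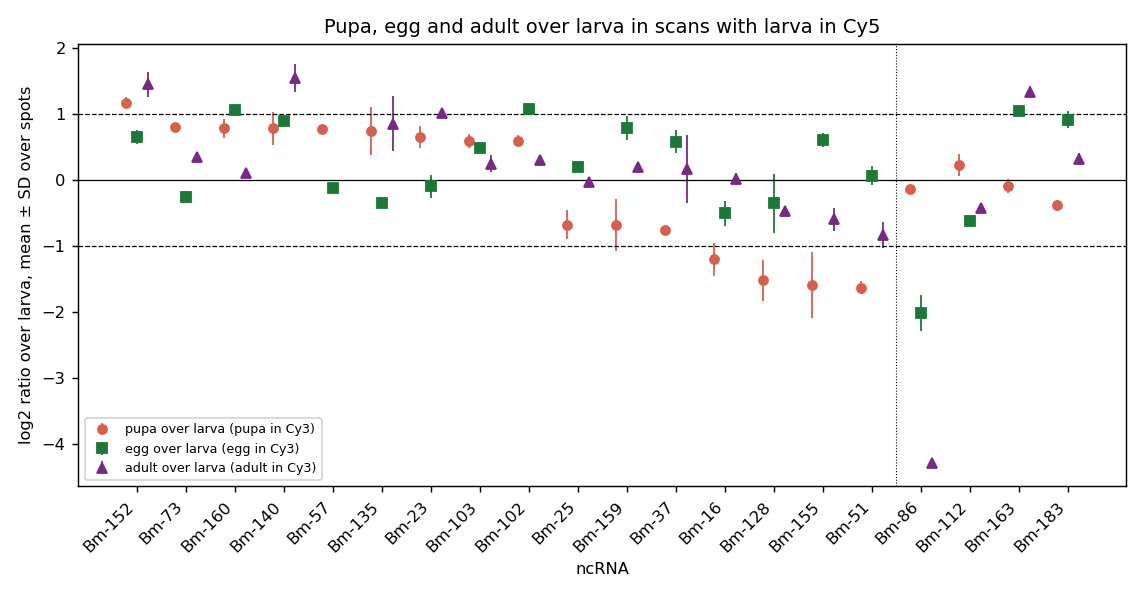
Log2 ratio over larva (vertical axis, mean ± SD over kept spots) in pupa, egg and adult, all with larva in Cy5, for the 16 ncRNAs past 1.5-fold in pupa and, right of the dotted line, 4 others that stood apart from both stages. Dashed lines mark 2-fold. Bm-86 lies at -0.13 in pupa, against -2.01 in egg and -4.28 in adult.

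All egg-scan signals of Bm-51 and Bm-155 were above the background limits, which were far lower in that scan than in the adult scan. The larval signal of Bm-51 was 858 in the egg scan, with a limit of 168, and 836 in the adult scan, with a limit of 1551. Bm-51 was at -1.63 in pupa, where its signal was not above the limit, and 0.07 in egg. The difference was -1.70, or -1.58 with the pupal signal set at the limit. Bm-155 was at -1.58 in pupa and 0.61 in egg, a difference of -2.19 and the largest between pupa and egg in that direction. With egg in Cy5, Bm-155 was at -1.22 from 1 spot, so the sign in egg changed with the dye.

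Among all 101 ncRNAs measured in pupa and egg, 2 were higher in pupa by 2-fold or more with signals under a background limit set at that limit. They were Bm-86 and Bm-73, which differed by 1.06 (0.80 in pupa, -0.26 in egg). Bm-135 had a measured difference of 1.08, but of at least 0.84 with its larval signal in the pupal scan set at the limit. In the other direction there were 8 at the limits and 9 as measured, where the ninth, Bm-37, had a bound of -0.78. They included Bm-158, at 0.08 in pupa (1 spot) and 1.38 in egg, and Bm-100, at 0.22 ± 0.25 in pupa (SD, 3 spots) and 1.25 in egg. Over the 108 ncRNAs shared with adult, 1 was higher in pupa (Bm-86) and 4 were lower as measured (Bm-16, Bm-18, Bm-128 and Bm-163). Bm-18 was at -0.37 ± 0.19 in pupa (SD, 3 spots) and 0.89 in adult, or 0.67 in adult with the larval signal of that scan set at its limit.

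In the egg scan, 5 of 118 ncRNAs were more than 2-fold higher than in larva (4.24%) and 1 was lower (0.847%). The pupal ratios of the 5 were 0.22 for Bm-100, 0.59 for Bm-102, 0.08 for Bm-158, 0.78 for Bm-160 and -0.09 for Bm-163. In the adult scan, 5 of 120 were higher as measured (4.17%) and 1 was lower (0.833%). Of the 5, Bm-35 and Bm-152 had larval signals under that scan's limit, and with these set at the limit they were at 0.35 and 0.78, short of 2-fold. The pupal ratios of these 5 were 0.65 for Bm-23, 0.21 for Bm-35, 0.78 for Bm-140, 1.17 for Bm-152 and -0.09 for Bm-163. The 1 lower ncRNA was Bm-86 in both scans. Bm-152 was at 1.17 in pupa, 0.65 in egg and 1.45 as measured in adult.

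No spot was kept for 21 ncRNAs. These were Bm-4, Bm-8, Bm-11, Bm-13, Bm-15, Bm-17, Bm-19, Bm-28, Bm-44, Bm-53, Bm-64, Bm-66, Bm-76, Bm-77, Bm-85, Bm-95, Bm-110, Bm-142, Bm-174, Bm-175 and Bm-176. Their signals were 49.0 to 339 in pupa and 55.4 to 400 in larva. All pupal spots of the 21 were below the background limit, as were all larval spots of 20 of them. In the same orientation 17 of the 21 were kept in the egg scan, 12 in the adult scan, 10 in both and 2 (Bm-66 and Bm-175) in neither. The authors' deposited table gives a pupal value for 12 of the 21, which can only come from the scan shared with adult.

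Bm-11 is the clearest case among the 21. Its signals were 49.0, 49.3 and 87.2 in pupa, against 55.6, 109 and 75.3 in larva. In the adult scan the larval channel of its 3 spots had 11608, 17468 and 8092, and in the egg scan 1264, 1238 and 1826. The larval pool was named as the same in all 3 scans, so its signal at 1 probe differed between arrays by far more than the ratios within an array. Over the 99 ncRNAs in all 3 scans, the larval log2 signal of the pupal scan minus that of the egg scan had an SD of 1.80. Against the adult scan the SD was 0.93. For this reason stages were set against each other by ratios within a scan and not by signals from separate scans.

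The named controls gave little check of this scan. None of the 12 spots of RpL3, a ribosomal protein gene, or of the 12 of actin A3, a cytoplasmic actin gene, was kept. RpL3 had a median signal of 74.6 in pupa, against 126 in larva, and actin A3 had 121 in pupa, against 107 in larva. In the egg scan all 12 spots of each were kept, and in the adult scan 7 of RpL3 and 0 of actin A3. The control named ph was kept in all 12 spots, with 409 to 1642 in pupa, against 261 to 1701 in larva. Its log2 ratio was 0.26 ± 0.44 (SD, 12 spots), between -0.45 and 1.17, a spread about as large as that over all ncRNAs. The same control was at 0.69 ± 0.26 in egg (SD, 11 spots) and 1.03 ± 0.24 in adult (SD, 12 spots).

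In the authors' deposited table, which averages both pupal scans, the values of the 5 ncRNAs past 2-fold here were -0.13 for Bm-152, -0.41 for Bm-51, -0.50 for Bm-155, -0.53 for Bm-128 and -0.43 for Bm-16. The authors' deposited table gives 2.06 for Bm-86, which was at -0.13 in the scan with pupa in Cy3 and at 4.26 in the shared scan. Where only the scan with pupa in Cy3 was kept, at 19 ncRNA spots, the authors' deposited ratio was the value used here.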

How the data were processed

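For each stage the authors deposited 2 intensities (red and green) and a flag, a quality score, per spot and scan, with a log2 ratio and a p-value per spot. Per the file headers, red is Cy5 and green is Cy3, each named with its stage. Per the labels' protocols, total RNA was extracted with Trizol and labelled during cDNA synthesis. The software, like the background correction and the normalization, is not given in the sources used here. The intensities were taken as deposited, since their medians were close in both dyes. The authors' deposited log2 ratio equals the mean over scans with a flag of 0 or above, within 1e-08, at 382 of 382 pupal spots; the deposited p-value, whose test is not stated, was not used.

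Here, log2 of pupa (green) over larva (red) was computed per kept spot without a pseudocount and averaged per ncRNA (Python 3.11.15, pandas 2.3.3, numpy 2.4.6). Calls need a fold limit (2 or 1.5) and 1 sign in every kept spot; a signal under the negative spots' 95th percentile gives only a bound. No p-value was computed. The calling was tested on simulated data. Named ncRNAs are those past 1.5-fold, the 5 next, the 5 nearest equality, the 3 with the largest and smallest SD, those apart from egg and adult, those past 2-fold there and those not measured. The members and lists were chosen with earlier results of these data known. The number of arrays limits the precision. Alternatives were other background, centring and loess settings, spot filters, single spots left out, dye terms, the other pupal scan and the authors' table.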

Additional observations from a re-analysis of the deposited data

Results flagged for a closer look

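Bm-155 and Bm-159 stood past 1.5-fold on opposite sides in pupa and egg, in scans of the same dye orientation. Bm-155 was at -1.58 in pupa and 0.61 in egg, but its sign in egg was reversed with egg in Cy5 (1 spot). Bm-159 was at -0.68 in pupa (2 spots, at -0.96 and -0.40) and 0.79 in egg. The difference was not tested, because each stage is 1 pool.

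Of the 108 negative spots, 5 carried no negative flag in the pupal scan. The brightest had a signal of 1131 in pupa and 1000 in larva. The other 4 had 911, 618, 816 and 707 in pupa, against 790, 596, 823 and 850 in larva. All 5 were of the kind named only as other negative controls.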

How the results depend on the processing

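Each stage is 1 pool on 1 array per orientation, so depth of sampling is that of 3 spots, and signals near the negative spots limit the sizes of the lower ncRNAs. No paired analysis was possible because each stage has 1 sample. With 1 spot left out in turn, 1 ncRNA was higher and 4 were lower at 2-fold each time, and at 1.5-fold 6 to 8 were higher and 5 to 9 lower. Of 237 recomputed values of named ncRNAs in the scan with pupa in Cy3, 216 moved by less than 1 SD, 20 moved by more with the same sign, and 1 reversed, Bm-37 at 0.45 with flagged spots kept. That setting also ended the 2-fold call of Bm-16 (-0.92) and left 3 lower. By construction, a value cannot move by 1 SD when 1 spot is left out or the median is taken. Keeping only ncRNAs of 3 spots does not change a value. Those settings gave 18, 17 and 18 values (spots left out), 18 (median) and 14 (3 spots) of the 237. The count of 216 is therefore not a measure of stability.

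Without the dimmest 25% of spots, 82 ncRNAs were left, of which 2 were lower at 2-fold (Bm-16 and Bm-155) and 2 at 1.5-fold. The other lower ncRNAs, Bm-25, Bm-37, Bm-51, Bm-128 and Bm-159, had no value under that setting. With only ncRNAs of 3 spots, 4 were lower at 1.5-fold, since Bm-16, Bm-37 and Bm-159 had fewer kept spots. With the egg dye term taken off, 2 were higher at 2-fold (Bm-152 and Bm-160). The mean dye term could be taken off for 92 ncRNAs, not including Bm-57 and Bm-160, and 5 were then higher at 1.5-fold. At 4-fold 0 were higher and 0 lower. At 1.5-fold, 9 were higher and 7 lower, and 2 and 9 stood apart from both egg and adult.

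Averaging both pupal scans as labelled gave 0 higher and 0 lower at 2-fold and 1 and 3 at 1.5-fold, with Bm-152 at -0.13, Bm-140 at -0.38, Bm-23 at -0.18 and Bm-135 at -0.029. The authors' deposited table gave 1 higher (Bm-86 at 2.06) and 0 lower at 2-fold, so it shared 0 calls with the 5 here. It gave 3 and 3 at 1.5-fold, and the same values for Bm-152, Bm-140 and Bm-23. With the shared scan's sign turned, added after seeing the data, 2 were higher (Bm-140 and Bm-152) and 3 lower (Bm-51, Bm-155 and Bm-86) at 2-fold, with Bm-86 at -2.20, Bm-128 at -0.99 and Bm-16 at -0.59. The cause was not tested.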

Other observations

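The 7 probes named AP, whose target the labels do not give, had no kept spot (0 of 21) in the scan with pupa in Cy3. Their signals were 66.7 to 262 in pupa (median 161), against 55.4 to 124 in larva (median 69.9). The pupal signal was above the larval one in 20 of the 21 spots, although all were under the negative spots' 95th percentile (369 in pupa). The medians of the negative spots were 57.3 in pupa and 64.2 in larva.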
